A study of Homo sapiens with 4 samples.

Results

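The genes described here encode the proteins of the cytosolic ribosome. They were taken from the deposited table by symbol: an RPS or RPL prefix followed by a number and at most a short suffix, together with *RPSA*, *RPLP0*, *RPLP1* and *RPLP2*, with the S6 kinase genes and pseudogene symbols ending in P and digits left out. This gave 85 of the 16811 genes. RefSeq lists 82 of them as protein coding and 3 as pseudogenes (*RPL12L3*, *RPS10L* and *RPS2L1*). Of the protein-coding genes, 76 are core ribosomal protein genes, 30 of the small and 46 of the large subunit, and 6 are paralogs that resemble a core gene (*RPL3L*, *RPL7L1*, *RPL22L1*, *RPL26L1*, *RPL39L* and *RPS27L*). *RPS18* was not analysed here.

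The RNA-seq libraries came from MCF12A, a human line of mammary epithelium that does not form tumours, although its source label in the series reads as a breast cancer line. The 2 edited libraries were from cells in which CRISPR/Cas9 had removed the p2 promoter of the long non-coding RNA gene *C1orf132*, which the labels give as C1orf132 KO, and the 2 wild-type libraries were from unedited cells. Edited cells had been sorted singly by GFP and grown as colonies, and the number of colonies behind the edited libraries is not given in the sources used here, so that they may be 1 clone. Both groups were grown in the same DMEM/F12 medium with horse serum, EGF, hydrocortisone, cholera toxin and insulin, and both libraries of a group are described as biological replicates. *C1orf132* itself was not analysed here, so that the groups rest on the labels alone.

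Each ribosome holds one copy of nearly every ribosomal protein, and the P-stalk proteins are the main exception. Their genes are among the most strongly transcribed of a cell, and their levels usually move together. Most of their mRNAs begin with a C followed by a run of pyrimidines, the 5′ terminal oligopyrimidine (TOP) sequence, through which mTOR signalling and the RNA-binding protein LARP1 control their translation. A few ribosomal protein genes have a retained duplicate whose protein can take the place of its parent or has a role outside the ribosome.

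The start sites of a few members are shown, among them the 5 with the largest differences between edited and wild-type cells. These (*RPL26L1*, *RPS27L*, *RPS26*, *RPL7L1* and *RPS29*) lack a short word, CTTT, that most core genes hold at their start. *RPL26L1*, *RPS27L* and *RPL7L1* are paralogs, and *RPS29* alone of the 5 was lower in edited cells. *RPL22L1* also lacks CTTT, with a log2 fold change, edited minus wild type, of -0.07. *RPS23*, next in size after the 5, holds CTTT, with a log2 fold change of 0.53 beside -0.57 for *RPS29*. *RPL12*, *RPL7A* and *RPL35* also hold CTTT, with log2 fold changes of -0.45, -0.44 and -0.33. A link between CTTT and the differences was not tested. The parents *RPL26* and *RPS27* and the members *RPS23* and *RPS24* are shown beside the 5. Each is 30 bases from RefSeq on GRCh38.p14, read along the transcribed strand from 10 bases before an annotated start to 20 bases into the transcript, with CTTT in capitals where it occurs.
RPL26, chr17:8383174-8383203, minus strand: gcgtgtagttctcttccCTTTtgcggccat
RPL26L1, chr5:172958719-172958748, plus strand: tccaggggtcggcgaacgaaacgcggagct
RPL26L1, second start, chr5:172958870-172958899, plus strand: ggcggcggccacaaacccgcaggcacgccg
RPS27, chr1:153990752-153990781, plus strand: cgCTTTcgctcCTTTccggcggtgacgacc
RPS27L, chr15:63157458-63157487, minus strand: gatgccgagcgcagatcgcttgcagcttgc
RPL7L1, chr6:42879606-42879635, plus strand: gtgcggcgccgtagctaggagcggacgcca
RPS23, chr5:82278335-82278364, minus strand: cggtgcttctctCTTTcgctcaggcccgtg
RPS26, chr12:56041908-56041937, plus strand: acataacctcgattttcttccgccatccgg
RPS29, chr14:49598691-49598720, minus strand: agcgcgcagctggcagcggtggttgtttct
RPS24, chr10:78033853-78033882, plus strand: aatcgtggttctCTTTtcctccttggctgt

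CTTT was chosen after such windows had been looked at, as a short word that many of them share. It was found on the transcribed strand, at any annotated start, of 47 of the 61 core genes with a sequence in the table and of none of the 4 paralogs with one. That is 72.3% of the 65 members with a sequence, against 15.1% of all 27305 genes. On the other strand, where it reads AAAG, it was found in 6.15% of these members and in 11.9% of all genes. At the most pyrimidine-rich start of each gene, the first 10 transcribed bases were 80.0% pyrimidine in the median core gene and 50% in the median gene. Among the core genes, those with CTTT had a median log2 fold change, edited minus wild type, of -0.03 (n = 47) and those without it a median of 0.06 (n = 14).

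The ribosomal protein genes made up a smaller share of the summed expression in edited than in wild-type cells, whereas nearly all of them, taken singly, did not pass the test. The 85 genes took up 17.7% and 19.1% of the summed value of all genes in the edited libraries and 21.7% and 19.7% in the wild-type libraries. Both edited libraries were below both wild-type ones, with means of 18.4% ± 1.00 and 20.7% ± 1.43 (SD, n = 2 each). The difference of -2.31 percentage points lay between -3.32 and -1.30 with 1 library left out. The members' own summed values overlapped between the groups, at 293092 and 316029 in edited and 348674 and 284845 in wild-type cells. The summed value of all genes was higher in both edited libraries, at 1655437 and 1652352, than in the wild-type libraries, at 1604212 and 1444644. With 2 libraries a group, exact permutation (two-sided) cannot give a p below 0.333, so no test was made. With the 37 mitochondrial genes taken out of the sum, the shares were 20.1% and 21.1% in edited and 23.9% and 22.5% in wild-type cells. The mitochondrial genes themselves took up 11.8% and 9.27% in edited and 9.13% and 12.2% in wild-type cells, so that these groups overlapped. In these bulk libraries, less RNA per cell and fewer cells of a kind cannot be told apart.

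Of the 85 members, 82 had a mean of at least 10 over the 4 libraries and were tested with the other genes of that level, 9590 in all, with limma on log2(value + 1). *RPL26L1* passed the threshold of an adjusted p under 0.05, with a higher level in edited cells, and no member was lower by the same test. That is 1.22% of the members, against 7.09% of all genes tested. By direction, 2.89% of all genes tested were higher and 4.2% were lower. At an unadjusted p under 0.05 the counts were 5 of 82 members (6.1%) and 3095 of 9590 genes (32.3%). At an adjusted p under 0.001, 0 members and 1 gene in all (0.0104%) passed. Among the other genes with a mean of at least 1000, the level at which most core genes lie, 6 of 134 (4.48%) passed the adjusted threshold.

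The members' differences were also small in size. Their median log2 fold change was -0.02, beside 0.09 for all genes tested, and the quartiles of the members were -0.13 and 0.10. Within 0.2 of no difference lay 59 of the 82 members, against 2687 of the 9590 genes. A difference of at least 0.5 in either direction was seen in 6 members and in 3734 genes. The standard deviation of the log2 fold changes was 0.21 over the core genes and 0.81 over all genes tested. The median standard error of a member was 0.21. It holds differences between libraries that the members shared, so it does not measure the noise behind the spread of the core genes. Over the core genes, the difference between replicates had a standard deviation of 0.16 in edited and 0.09 in wild-type cells on the log2 scale.

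**Figure D1:**
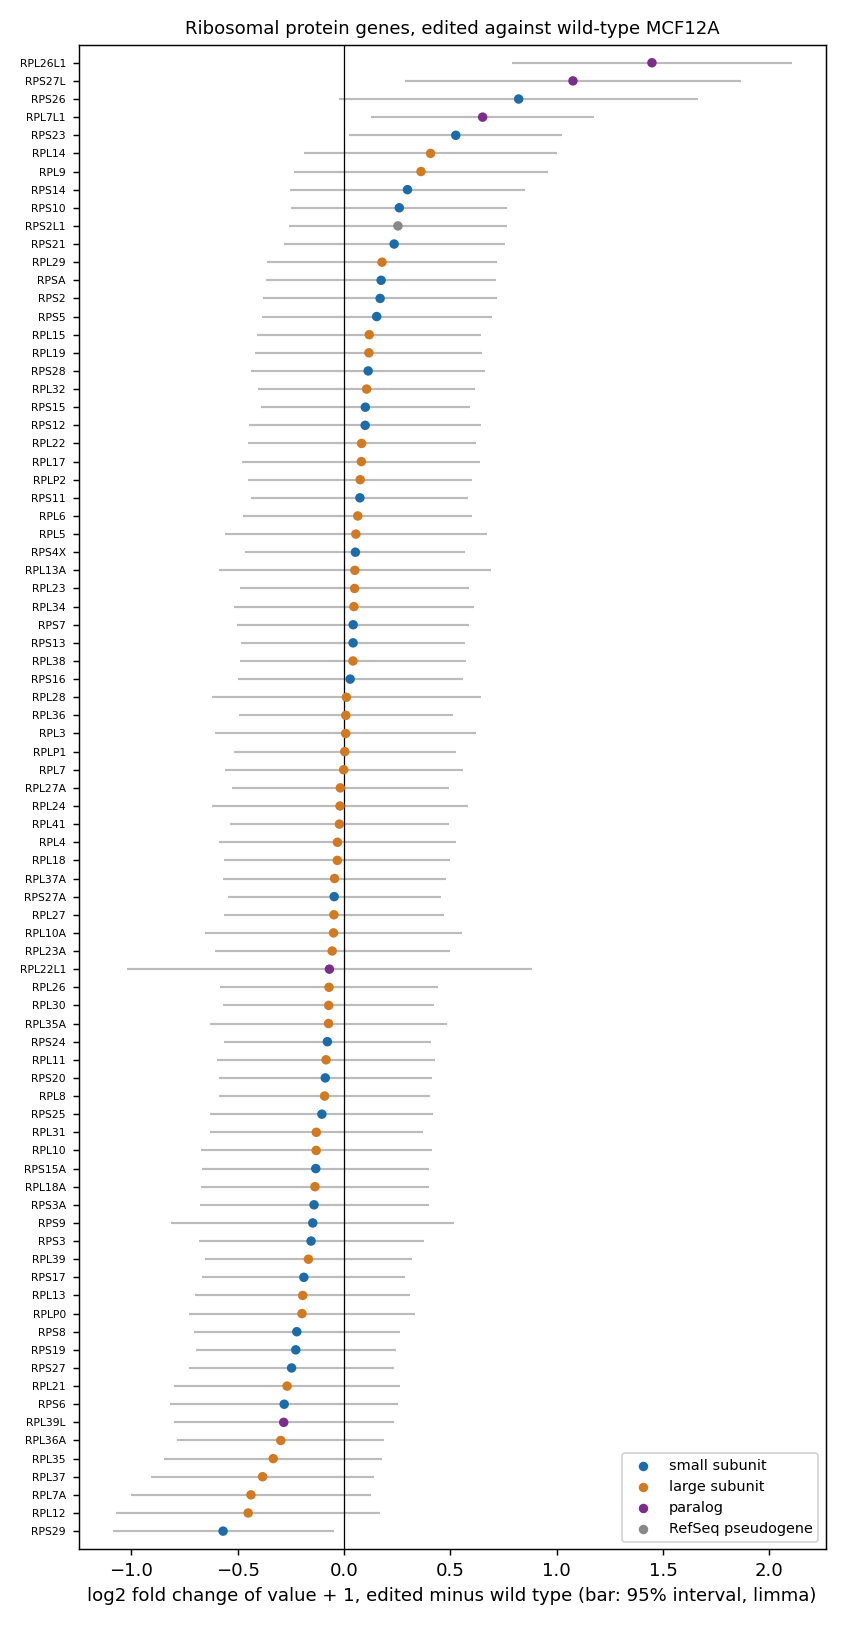
Log2 fold change of value + 1, edited minus wild type, for the 82 tested members in order of size, as points coloured by subunit or kind, with 95% intervals from limma as bars (2 libraries a group). The core genes lie between -0.57 (*RPS29*) and 0.82 (*RPS26*), most intervals cross 0, and *RPL26L1* and *RPS27L* stand at the top.

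The wild-type libraries differed from each other by more than the groups did. All 82 tested members had a higher value in wild-type replicate 1 than in wild-type replicate 2, as did 64.0% of all genes tested, and the median member differed by 0.29 on the log2 scale. Between the edited libraries the median member differed by -0.09, replicate 1 minus replicate 2, and 63 of 82 were higher in replicate 2. The median member was therefore at -0.22 in edited replicate 1 against wild-type replicate 1, and at 0.19 in edited replicate 2 against wild-type replicate 2. Without wild-type replicate 1 the median of the members was 0.16, and without wild-type replicate 2 it was -0.18.

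The order of the core genes by level was nearly the same in every library. Over the 76 core genes, the rank correlation of levels was 0.98 between the edited libraries and 0.99 between the wild-type libraries. It was 0.95 for each edited library set against each wild-type library, as a description across genes that share libraries. *RPS24*, a small subunit protein, had the highest level in both groups, with values of 9524 and 10147 in edited and 11238 and 9581 in wild-type cells (values are taken here as scaled for transcript length, which the sources do not state and on which comparisons of level between genes depend). *RPL8* followed with 7930 and 9058 in edited and 9663 and 8436 in wild-type cells. *RPL10*, a large subunit protein whose loading is a late step of subunit maturation, had 6671 and 8272 against 8874 and 7452. *RPL4* had 6919 and 7904 in edited and 8632 and 6610 in wild-type cells, and *RPS2* had 7530 and 8254 against 8030 and 6114. The groups overlapped for all 5 of these genes. *RPS24* was above *RPL8*, and *RPL8* above *RPL10*, in each of the 4 libraries, whereas the ranges of *RPL10*, *RPL4* and *RPS2* overlapped.

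The median core gene had a value of 3654 as a mean of the edited libraries and 3816 as a mean of the wild-type libraries, and 74 of the 76 were at 1000 or above in both groups. The other 2 were *RPS26*, at 438 ± 173 in edited and 241 ± 52.1 in wild-type cells, and *RPL9*, at 100.0 ± 22.3 and 77.1 ± 12.2 (SD, n = 2 each). Both genes have near-identical copies elsewhere in the genome, and how the authors' counting treated shared reads is not given in the sources used here, so that the levels of *RPL9* and *RPS26* are uncertain. *RPL9P9*, a copy of *RPL9*, was listed at 16.1 and 22.2 in edited and 7.30 and 8.09 in wild-type cells. *RPS2P5*, a copy of *RPS2*, was at 1253 and 1303 in edited and 1353 and 1069 in wild-type cells, about as high as the weaker core genes. The 64 ribosomal protein pseudogenes left out by the rule summed to 1614 and 1654 in edited and 1670 and 1362 in wild-type cells.

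Of the 30 small subunit genes, 16 lay above and 14 below 0, with a median log2 fold change of 0.04. No core gene of this subunit passed the adjusted threshold. *RPS23*, which sits at the decoding centre of the ribosome, had values of 5502 and 5608 in edited and 4195 and 3549 in wild-type cells. Its edited libraries were both above its wild-type libraries, by 0.53 ± 0.20 (SE) on the log2 scale with an adjusted p of 0.143 from limma. *RPS26* was at 561 and 316 in edited and 278 and 204 in wild-type cells, and its edited libraries differed from each other by more than its wild-type libraries did. Its log2 fold change was 0.82 ± 0.34 (SE) with an adjusted p of 0.162 from limma. *RPS29*, a small zinc-binding protein, went the other way with 2513 and 2478 in edited and 4079 and 3356 in wild-type cells. The groups did not overlap, the log2 fold change was -0.57 ± 0.21 (SE) and the adjusted p from limma was 0.132.

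*RPS6*, the protein phosphorylated by S6 kinase downstream of mTOR, had values of 5839 and 6309 in edited and 8334 and 6525 in wild-type cells, a log2 fold change of -0.28 with an adjusted p of 0.402. *RPS19*, the gene most often mutated in Diamond-Blackfan anaemia, had 6132 and 6394 in edited and 7665 and 7001 in wild-type cells, a log2 fold change of -0.23 with an adjusted p of 0.445. For both genes the edited libraries lay below the wild-type libraries, and neither passed the limma test.

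The 46 large subunit genes lay closer together, with a median log2 fold change of -0.03, 38 of them within 0.2 of 0 and none at 0.5 or more. *RPL12* had values of 2842 and 3588 in edited and 5066 and 3758 in wild-type cells. *RPL7A* had 4301 and 4796 in edited and 7069 and 5351 in wild-type cells, and *RPL37* had 4316 and 4797 against 6546 and 5376. *RPL35*, which lies close to the exit of the peptide tunnel, had 3717 and 3261 against 4702 and 4087. In each of these 4 genes both edited libraries were below both wild-type libraries. The log2 fold changes were -0.45, -0.44, -0.38 and -0.33 with adjusted p-values between 0.238 and 0.309 from limma, so that none passed. At the other end, *RPL14* had 3278 and 3268 in edited and 2914 and 2091 in wild-type cells, a log2 fold change of 0.41 with an adjusted p of 0.285. *RPL14* was picked out after its value had been seen.

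The P-stalk, which recruits the translation factors that use GTP, is built from *RPLP0*, *RPLP1* and *RPLP2*. *RPLP0* had values of 5164 and 5906 in edited and 7004 and 5725 in wild-type cells, with a log2 fold change of -0.20. *RPLP1* had 5276 and 5535 in edited and 6016 and 4832 in wild-type cells, with a log2 fold change of 0.00. *RPLP2* had 2979 and 3106 against 3194 and 2606, with a log2 fold change of 0.08. The groups overlapped for all 3 stalk genes, and the 95% intervals ran from -0.73 to 0.33 for *RPLP0*, from -0.52 to 0.53 for *RPLP1* and from -0.45 to 0.60 for *RPLP2*.

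*RPL5* and *RPL11* bind 5S rRNA and, when ribosome assembly fails, hold back MDM2, the ubiquitin ligase of p53. *RPL5* had values of 1815 and 1962 in edited and 2159 and 1526 in wild-type cells, a log2 fold change of 0.06 with a 95% interval from -0.56 to 0.67. *RPL11* had 4215 and 4600 in edited and 5081 and 4289 in wild-type cells, a log2 fold change of -0.08 with an interval from -0.59 to 0.43. The wild-type libraries enclosed both edited libraries for *RPL5*, and the groups overlapped for *RPL11*.

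The paralogs had a median log2 fold change of 0.65 over the 5 tested, beside -0.02 for the core genes and 0.09 for all genes tested. These 5 ranged from -0.28 to 1.45. A difference of at least 0.5 in either direction was seen in 3 of them and in 38.9% of all genes tested. *RPL26L1*, a duplicate of *RPL26* at chr5:172954094-172969771 on GRCh38.p14, had values of 228 and 154 in edited and 76.3 and 60.7 in wild-type cells. Both edited libraries were above both wild-type libraries, and the ratio of the means was 2.79. Its log2 fold change of 1.45 ± 0.26 (SE) passed the limma test with an adjusted p of 0.0403. Leaving out edited replicate 1 gave 1.17, leaving out wild-type replicate 1 gave 1.61 and leaving out wild-type replicate 2 gave 1.28. *RPL26L1* no longer passed in any of these fits, in which 424, 47 and 4 of all genes did. *RPL26*, the parent gene, had 4029 and 4392 in edited and 4817 and 4050 in wild-type cells, a log2 fold change of -0.07. The coding sequences of this pair are close, and since the treatment of shared reads is not given, the level of *RPL26L1* is uncertain. *RPL26L1* stood at 5.66% and 3.51% of the *RPL26* level in edited cells and at 1.58% and 1.5% in wild-type cells.

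*RPS27L*, a duplicate of *RPS27* known as a p53 target, was at 607 and 337 in edited and 215 and 213 in wild-type cells. The wild-type libraries were close together, whereas edited replicate 1 was far above edited replicate 2. Its log2 fold change was 1.08 ± 0.32 (SE) with an adjusted p of 0.0881 from limma, and without edited replicate 2 it passed, at 1.5 with an adjusted p of 0.0178. *RPS27L* amounted to 9.89% and 5.14% of *RPS27* in edited and to 2.69% and 3.01% in wild-type cells. *RPL7L1*, a nucleolar relative of *RPL7*, was at 137 and 115 in edited and 88.1 and 71.8 in wild-type cells, a log2 fold change of 0.65 ± 0.21 (SE) with an adjusted p of 0.104.

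The other paralogs did not follow this direction. *RPL22L1*, a duplicate of *RPL22*, had values of 359 and 189 in edited and 340 and 219 in wild-type cells, so that the groups overlapped and replicate 1 was higher in both. *RPL39L*, a relative of *RPL39* best known from the testis, was at 83.4 and 70.9 in edited and 104 and 84.2 in wild-type cells, with a log2 fold change of -0.28. *RPL3L*, a muscle form of *RPL3*, was at 0.271 and 0.338 in edited and 1.60 and 1.30 in wild-type cells, under the level needed for the test. Among all genes without that filter, its log2 fold change was -0.91 with an adjusted p of 0.0987 from limma. The pseudogenes *RPL12L3* and *RPS10L* were also under that level, with values between 0.575 and 1.86, and *RPS2L1* had values of 14.0 and 14.0 in edited and 12.1 and 11.1 in wild-type cells.

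**Figure D2:**
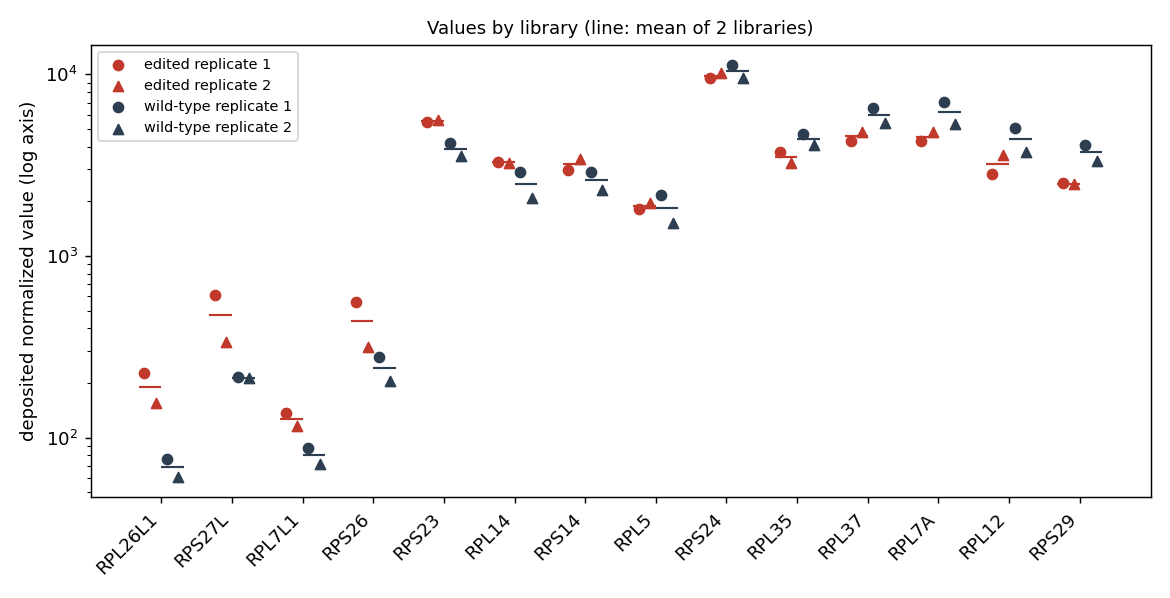
Deposited normalized value on a log axis for 14 members in each of the 4 libraries, with a line at the mean of each group of 2. The edited libraries lie above the wild-type libraries for *RPL26L1* (154 and 228 against 60.7 and 76.3) down to *RPS14*, the groups overlap for *RPL5* and *RPS24*, and the edited libraries lie below from *RPL35* to *RPS29*.

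A second fit asked which members moved differently from the rest of the ribosomal protein genes. Each library was divided by the geometric mean of 77 tested members, the core genes and *RPS2L1*, so that the level shared by the group was taken out. *RPL26L1* and *RPS23* were then higher in edited cells and no member was lower, at an adjusted p under 0.05 from limma, which is 2.44% of the members against 10.7% of all genes tested. Of all genes tested, 5.55% were higher and 5.17% lower in this fit. At an unadjusted p under 0.05 there were 10 members (12.2%), against 30.6% of all genes, and at an adjusted p under 0.001 there were 0, against 0.396%. *RPS23* was higher by 0.54 ± 0.14 (SE) relative to the group with an adjusted p of 0.0440, and *RPL26L1* by 1.46 ± 0.27 with an adjusted p of 0.0169. *RPS29* was at -0.55 ± 0.15 (SE) with an adjusted p of 0.0527, just outside the threshold. The call of *RPS23* ended when any 1 of the 4 libraries was left out, and that of *RPL26L1* when either wild-type library was.

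Among the 82 tested members, the libraries of the 2 groups did not overlap in 26 (31.7%), 11 with edited cells above and 15 with edited cells below. Among all genes tested this was so for 65.1%, 38.3% above and 26.9% below. The share of members whose groups were apart was thus below the share of all genes.

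Several members far from 0 lay on chromosomes whose other genes also stood apart from the median of all genes. Among the exceptions were *RPS26* and *RPS27L*, whose neighbours within 10 Mb had median log2 fold changes of 0.08 and 0.01. The neighbours of *RPS6* and *RPL7A* were also near 0 by this measure, at 0.01 and -0.03, although their chromosome as a whole was lower. On chromosome 9 all 4 members, *RPL35*, *RPS6*, *RPL12* and *RPL7A*, were below 0, with a median log2 fold change of -0.38 beside -0.18 for the other 370 genes tested there. *RPS29* is the only member on chromosome 14, where the median of the other 311 genes was -0.45. *RPL21*, the only member on chromosome 13, was at -0.27, and the median of the other 149 genes there was also -0.27. On chromosome 5 the median of the other 413 genes was 0.36. Its members *RPS23*, *RPS14* and *RPL26L1* were above 0, while *RPL37* was below. Elsewhere the members did not always go with the other genes. On chromosomes 16, 19, X and 22 the medians of the other genes were 0.27, 0.24, 0.18 and 0.24. Those of the members there were -0.13 (n = 3), 0.02 (n = 12), -0.15 (n = 4) and 0.01 (n = 1). On chromosomes 6 and 20 the members' medians were 0.18 and 0.24, beside 0.23 and 0.22 for the other genes. These chromosomes were picked out after their values had been seen.

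Along chromosome 5 the neighbours of the members differed. Within 10 Mb on each side, the median log2 fold change of the other tested genes was -0.30 around *RPL37* (chr5:40825262-40835222 on GRCh38.p14) and 0.22 around *RPS23* (chr5:82273320-82278354). It was 0.40 around *RPS14* (chr5:150442635-150449739), whose own log2 fold change was 0.30, and 0.46 around *RPL26L1*. Over all 82 tested members, Pearson's correlation between a member's log2 fold change and the median of its neighbours was 0.43 and Spearman's was 0.44. Over the 76 core genes they were 0.45 and 0.41, and over the 67 core genes outside chromosomes 5, 9, 13 and 14 they were 0.17 and 0.20. With 5 Mb on each side these last values were 0.037 and 0.075, and with 20 Mb they were 0.19 and 0.22. Over all 82 members the other windows gave Pearson's correlations of 0.40 and 0.45. These are descriptions across genes, and genes that lie close together share neighbours. The part of the neighbouring genes' differences in the values of the members was not tested.

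**Figure D3:**
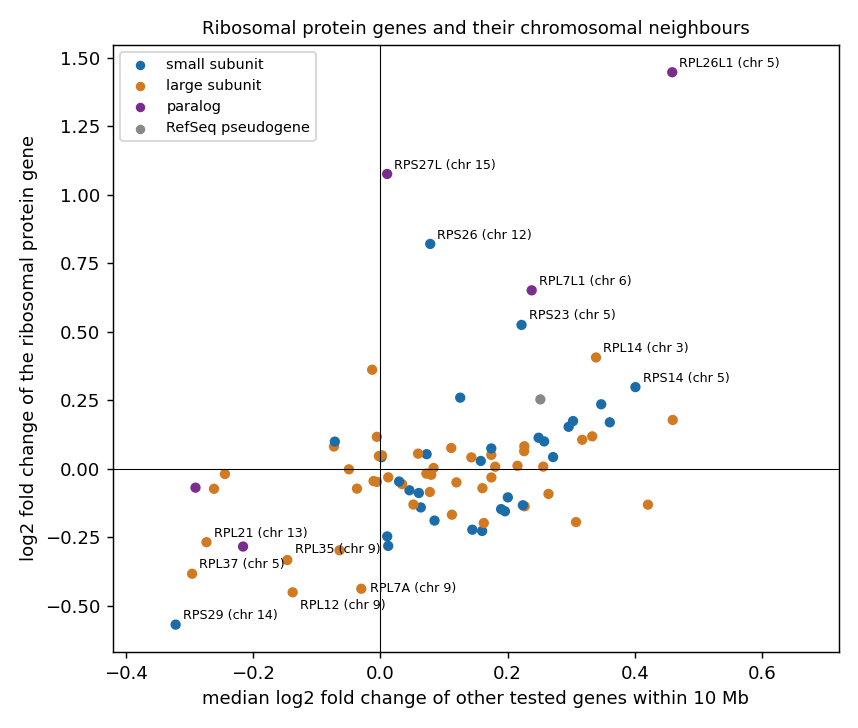
Log2 fold change of each of the 82 tested members (vertical) against the median log2 fold change of the other tested genes within 10 Mb of it (horizontal), coloured as subunit, paralog or pseudogene. *RPS29* and *RPL37* lie at the lower left, *RPL26L1* and *RPS14* to the upper right, and *RPS27L* and *RPS26* are high with neighbours near 0.

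Ribosomal components outside the rule were looked at by lists of genes with known roles. *RACK1*, a scaffold on the small subunit that lies on chromosome 5, was at 7418 and 8417 in edited and 6523 and 4750 in wild-type cells, with a log2 fold change of 0.51 and an adjusted p of 0.201. *FAU*, whose product is cut to release a ribosomal protein, had a log2 fold change of 0.31, and *RPL36AL* had -0.31. *RACK1*, *FAU* and *RPL36AL* did not pass the test.

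Genes for the factors that assemble ribosomes lay mostly above 0, that is, higher in edited cells. Of 43 ribosome biogenesis factors, 13 (30.2%) were higher in edited cells, beside 2.89% of all genes tested, and none was lower by limma's adjusted p under 0.05. Their median log2 fold change was 0.98, and 42 of 43 lay above 0, as did 5439 of the 9590 genes tested. *RRP9*, a protein of the U3 snoRNP, which takes part in pre-rRNA cleavage, had values of 77.8 and 54.5 in edited and 19.3 and 13.5 in wild-type cells, a log2 fold change of 1.94 with an adjusted p of 0.0223. *LTV1*, an export factor of the small subunit, had 53.0 and 32.4 against 13.6 and 7.89 (1.90, adjusted p = 0.0397 from limma). *NOP16*, a nucleolar protein of the large subunit path, had 332 and 201 against 84.1 and 70.7 (1.73, adjusted p = 0.0353 from limma). *PNO1*, a small subunit assembly factor, had 74.0 and 49.5 against 20.9 and 15.7 (1.69, adjusted p = 0.0285 from limma). None of these calls held with either wild-type library left out, fits in which few of all genes were called. With 1 library left out, the median of the factors lay between 0.76 and 1.17, and at least 40 of the 43 lay above 0 in each case. The list was chosen with earlier results of these data known, which limits the comparison with all genes tested. The difference between this list and the ribosomal protein genes was not tested.

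Chaperones and importers of ribosomal proteins had a median log2 fold change of 0.52, with 12 of 13 above 0. One passed, *GRWD1*, a chaperone that binds the RPL3 protein, with 72.5 and 59.5 in edited and 24.6 and 18.5 in wild-type cells (1.58, adjusted p = 0.0223 from limma). The 17 genes listed as translation factors with TOP mRNAs had a median of 0.09 and no call. This list also holds genes of other roles, such as *HNRNPA1* and *NAP1L1*. The 22 translation initiation factors had a median of 0.54 with 18 above 0, and the 12 genes of RNA polymerase I and its factors had a median of 0.39 with 10 above 0. No gene passed in either list, nor among 12 host genes of small nucleolar RNAs (median 0.07) and 15 regulators of ribosomal protein mRNA (median 0.33). *MYC*, which drives many ribosomal genes, was at 155 and 199 in edited and 179 and 119 in wild-type cells, with a log2 fold change of 0.26 and an adjusted p of 0.537 from limma. At an unadjusted p under 0.05, limma gave 1 of the 17 TOP translation factors, 11 of the 22 initiation factors, 6 of the 12 polymerase I genes, 2 of the 12 host genes and 3 of the 15 regulators, beside 5 of the 13 chaperones and importers, 35 of the 43 biogenesis factors and 32.3% of all genes tested. The TOP translation factors, host genes and regulators were below that share.

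**Figure D4:**
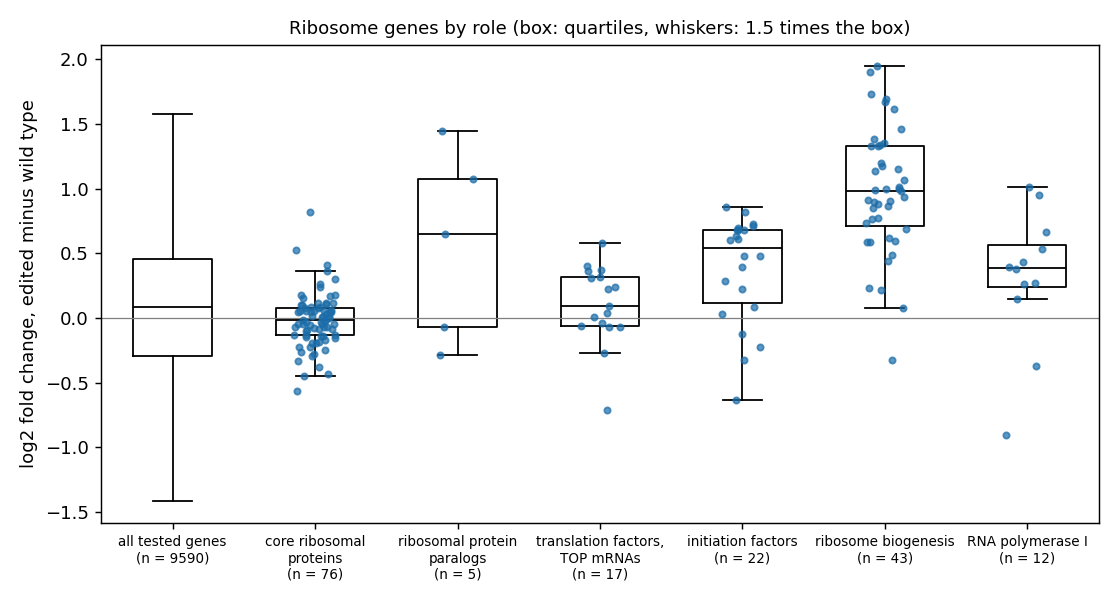
Log2 fold change, edited minus wild type, by role: all 9590 genes tested as a box, and 6 groups as boxes with a point for each gene (box, quartiles with the median; whiskers, the farthest gene within 1.5 box lengths; genes of the first box beyond its whiskers are not drawn). The core ribosomal proteins are packed around 0, and the biogenesis factors have a median of 0.98.

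Markers of the labelled cell type differed between the groups. All 10 basal mammary markers had a log2 fold change below 0 with a median of -2.44, 3 passed the test as lower, and their summed level was 4843 to 7575 in edited and 14384 to 22387 in wild-type cells. Of 6 general epithelial markers 4 were lower and *KRT8* was higher, and *GRHL2* was at 0.137 and 0.0460 in edited and 26.1 and 26.2 in wild-type cells. Of the fibroblast markers, *COL1A1* and *DCN* were in the table, at sums of 18.3 to 111 in edited and 23.0 to 29.2 in wild-type cells, and *COL1A1* was lower (log2 fold change -2.06). *DCN* was at 15.1 and 105 in edited and 7.42 and 1.09 in wild-type cells, a log2 fold change of 3.30 with an adjusted p of 0.0974 from limma. Of the immune markers *CD14* and *CD68* were, at sums of 41.7 to 58.4 and 47.1 to 54.9, with no call, and endothelial and erythroid markers were not analysed here. The part of these differences in the values of the ribosomal protein genes was not tested.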

How the data were processed

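RNA-seq was carried out on 2 edited and 2 wild-type MCF12A libraries (poly(A) selection, TruSeq, single-end reads on an Illumina NextSeq), grouped by the labels. The authors deposited 1 table of a normalized expression signal per gene and library. The submitters' processing notes name HISAT2, Salmon and hg38; versions, annotation, treatment of shared reads and the exact normalization are not given in the sources used here. Low values of genes with a single transcript were searched for whole multiples (tolerance 0.03) of a step. After multiplication by transcript length these were 25.4% to 28.5% of 165 to 197 values a library. Without it they were 16.0% to 20.8% of 25 to 58 values. The step was the one with the highest share, chosen for each library and quantity, so that both shares are raised by the choice. The signal is taken as scaled for length, which these shares do not settle. Read numbers were not recovered and depth is approximate: over the 81 tested members with a transcript length, the lowest value stood for about 435 reads. *RPS2L1*, with lower values, was not among them.

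Genes with a mean of at least 10 were fitted with limma 3.58.1 in R 4.3.3 (lmFit, eBayes with a mean trend). The scale was log2(value + 1), no block was used, and p-values were adjusted by Benjamini-Hochberg over all 9590 genes, with a threshold of 0.05. Fold changes on this scale understate those of low genes. P-values measure the spread between these libraries. The procedure was run on simulated data with noise drawn separately for each gene. That check does not cover a shift shared by the genes of a library. Replicate numbers come from the labels and share no stated batch or clone.

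Members were matched to RefSeq (GRCh38.p14) by symbol or synonym, all 85 of 85. The members and gene lists were chosen with earlier results of these data known. Named were members called in either fit, the 5 largest and 5 smallest fold changes, the 5 highest levels, the paralogs, the P-stalk, *RPL5*, *RPL11*, *RPS6* and *RPS19*, and, of other lists, the components outside the rule, *MYC* and up to 4 called genes in each direction; other genes were named after their values were seen. One component outside the rule is not reported here. Python 3.11.15, numpy 2.4.6, pandas 2.3.3 and matplotlib 3.10.9 were used. Alternatives in the pseudocount, filter, scaling, threshold, block, pool and libraries were tried.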

Additional observations from a re-analysis of the deposited data

How the results depend on the processing

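With 1 library left out, the number of ribosomal protein genes higher in edited cells ranged from 0 to 3 (3 without edited replicate 2, namely *RPL26L1*, *RPS27L* and *RPS26*), and their median log2 fold change from -0.18 to 0.16. Relative to their own pool the number higher ranged from 0 to 4, and the number of biogenesis factors higher from 0 to 28. A lone library left in a group was taken to vary like the other group.

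Scaling moved the centre of all genes: their median log2 fold change was 0.09 as deposited, -0.03 after equal totals and -0.07 after equal totals of the genes other than the ribosomal protein genes, and the members' median was -0.02, -0.14 and -0.18. After these 2 scalings, 12 and 11 of the 82 members had an unadjusted p under 0.05 from limma, beside 5 as deposited. The share of all genes at that level after them is not given here. By adjusted p, 1 member was higher and 0 lower after both, among 734 and 782 genes called in all. Quantile and cyclic loess normalization each added 1 member as lower, *RPS29* (adjusted p of 0.0449 and 0.0438 from limma). At a threshold of 0.001 no member and no biogenesis factor was called (0 in both fits), where 1 gene in all passed, or 38 relative to the pool. Relative to the pool, a mean of at least 50 added 1 lower member (*RPS29*), while no filter and no trend each left 1 higher. Without the filter 6 biogenesis factors were higher.

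The replicate numbers share only a number in the labels. Same-numbered libraries deviated from their group means with a correlation of -0.138. With the replicate number as a block, 0 members and 4 biogenesis factors were higher among 133 genes called in all; relative to the pool, 4 members were higher and 1 lower among 1576 genes. With the pairing crossed, chosen after seeing the data, 1 member was higher and 0 lower and 14 biogenesis factors were higher among 1002 genes called in all (680 with no block), and 3 members were higher and 1 lower among 1329 genes relative to the pool (1028 with no block).

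The cause of these changes was not tested. The alternatives for the biogenesis factors and the pool without *RPS2L1* were also added after seeing the data. *RPL26L1* kept its direction in the 15 alternatives at a threshold of 0.05 and passed in 11 of them, with adjusted p-values from limma between 0.00921 and 0.216, and it did not pass at 0.001.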
